A study of Bos taurus with 9 samples.

Results

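Interferon tau (IFNT), a type I interferon, is the signal by which the embryo of ruminants makes itself known to the mother. The genes described here are 9 components of the pathway through which a type I interferon acts, namely the receptor chains *IFNAR1* and *IFNAR2*, the kinases *JAK1* and *TYK2*, the transcription factor components *STAT2*, *STAT3* and *IRF9*, and the feedback inhibitors *SOCS1* and *SOCS3*. They were chosen by name as pathway components, with earlier results of these data known. All 9 were found by gene symbol among the 17162 genes of the expression table, and all 9 were among the 12578 genes tested. RNA was sequenced from cultured bovine endometrial cells (BEND) in 9 libraries, 3 per group. CON cells received no hormone and no IFNT. GA cells received 1 nM E2 and 100 nM P4, the steroids estradiol and progesterone. GB cells had 12 h of the same hormones, after which IFNT was given at 100 ng/mL for 12 h more. All cells were wild type and were grown in the same serum-containing medium. The sources do not state separately when CON and GA cells were harvested, so the effect of IFNT cannot be told apart from longer culture or, against GA, longer hormone exposure.

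The cells were primary cultures from uteri of Holstein cows collected at an abattoir, and replicates were culture dishes with no animal of origin named. The p-values therefore measure only the spread between these libraries, which may be technical. The labels call the cells epithelial, and the study purified them by differential attachment and reports positive immunofluorescence for the cytokeratin encoded by *KRT18*. That staining is of protein, and only RNA was read here. The RNA of the epithelial markers *KRT7*, *KRT8*, *KRT18*, *KRT19*, *CDH1* and *CLDN4* was near 0, with no value above 0.70 FPKM. Their summed levels per library were from 0.43 to 1.53 in CON, from 0.78 to 1.61 for GA and from 0.96 to 1.90 for GB. FPKM counts the fragments of a gene relative to its exon length and to the mapped fragments of the library, so genes of different length can be compared on it. All 6 stromal fibroblast markers were abundant, from 288 FPKM for *COL3A1* to 9570 for *VIM*. Their summed level, to which *VIM* gave most, was lower in GB (14330 to 14420 FPKM) than in CON (15880 to 16400) and GA (16130 to 16430). Against GA, all 6 markers were lower in GB, with log2FC from -0.32 (*COL3A1*) to -0.09 (*COL1A1*). All but *COL1A1* (adjusted p = 0.159, limma) passed the adjusted p there. Against CON, the markers did not all go one way, since *DCN* and *LUM* had higher values in GB without passing the test (log2FC 0.16 and 0.09, adjusted p = 0.0802 and 0.0906, limma). Both were higher in GA than in CON (log2FC 0.39 and 0.24, adjusted p = 0.038 and 0.0392, limma). No tested gene passed the adjusted p in GA vs. CON with the GC content of the reads as a covariate, so both calls were lost there. The 4 endothelial markers were low, but their sum was higher in GB (2.15 to 3.34 FPKM per library) than in GA (1.33 to 1.68), with CON at 1.60 to 2.20. *PECAM1* and *VWF* stayed at or under 0.40 FPKM, and *CDH5*, the one tested, rose in GB vs. GA (log2FC 0.68, adjusted p = 0.0395, limma). *KDR*, not tested, was at most 0.11 FPKM in CON and GA and was 0.42, 0.25 and 0.60 FPKM in GB. The part of these marker shifts in the results below was not tested. Of 6 immune markers, 5 were in the table and their sum was 20.8 to 26.8 FPKM over all libraries, most of it *CD14*, and overlapped between the groups.

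A type I interferon binds the receptor formed by *IFNAR1* and *IFNAR2*, and the kinases *TYK2* and *JAK1*, bound to these chains, phosphorylate STAT proteins. *STAT2* together with *IRF9* is part of ISGF3, the complex that binds the interferon-stimulated response element of target genes. *SOCS1* and *SOCS3* are inducible inhibitors of this class of kinase signalling, and *USP18* binds *IFNAR2* and limits further signalling. In the ruminant endometrium this pathway carries the response to the conceptus before implantation.

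In GB, *STAT2*, *IRF9* and *SOCS1* were 3.75, 4.64 and 6.33 times as abundant as in GA, and *IFNAR1* fell to 0.389 of its GA level. *IFNAR2*, *JAK1*, *TYK2* and *STAT3* did not pass the test against GA, and *SOCS3* rose by a factor of 1.19. Calls required |log2FC| above 1 together with an adjusted p under 0.05 in limma. By that rule 4 of the 9 genes (44.4%) were called in GB vs. GA, 3 higher and 1 lower, where 3.64% of all tested genes were called, 2.66% higher and 0.978% lower. The same 4 genes were called in GB vs. CON, where 4.01% of all tested genes were, 2.94% higher and 1.07% lower. None was called in GA vs. CON, where 0.0716% of all tested genes were. By the adjusted p alone, 5 of 9 passed in GB vs. GA (*SOCS3* in addition) against a background of 29% of tested genes, and 5 of 9 in GB vs. CON (*IFNAR2* in addition) against 33.5%. The ranges of the libraries did not overlap for 5 of 9 genes in GB vs. GA and for 6 of 9 in GB vs. CON, and over all tested genes for 46.8% and 46.1%, and nothing is read from these counts. The median log2FC of the 9 genes was 0.10 in GB vs. GA and 0.13 in GB vs. CON, and over all tested genes it was -0.08 and -0.02. Since the GB libraries enter both comparisons, the values are given side by side and are not independent. Within a bulk library, fewer cells of a type and less RNA per cell cannot be told apart.

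**Figure D1:**
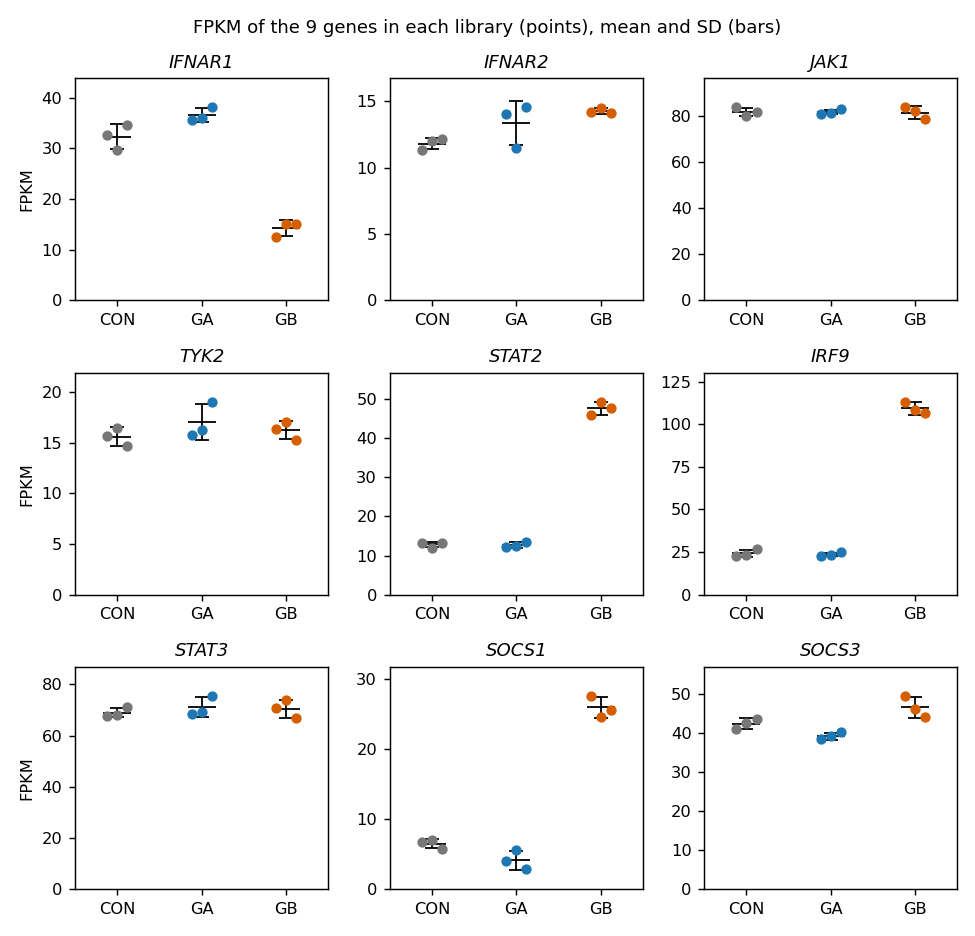
FPKM (vertical axes, from 0) of each of the 9 genes in the 3 CON, 3 GA and 3 GB libraries, with points for libraries and bars for the mean and SD. *IFNAR1* is lower in all 3 GB libraries (12.4 to 15.2 FPKM) than in any other, and *STAT2*, *IRF9* and *SOCS1* are higher in all 3 GB libraries, while *JAK1*, *TYK2* and *STAT3* overlap in all groups.

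The interferon targets *ISG15*, *MX1*, *MX2*, *RSAD2* and *IFIT2* were read first as a check of the treatment labels. *ISG15*, a ubiquitin-like protein, was 1.76 to 7.01 FPKM in the 6 libraries without IFNT and 5536 to 5616 FPKM in GB. *MX1*, a GTPase with antiviral activity, was 5.91 to 8.53 FPKM without IFNT and 1558 to 1587 FPKM in GB. *MX2*, *RSAD2* and *IFIT2* were at most 0.53 FPKM in every library without IFNT and at least 228 FPKM in every GB library. The 5 targets thus separated the 3 GB libraries from the other 6 without overlap.

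*IFNAR1* encodes the chain of the interferon receptor that binds *TYK2*. Its level was 32.5, 29.7 and 34.7 FPKM in CON, 35.7, 36.0 and 38.1 in GA, and 12.4, 15.1 and 15.2 in GB. All 3 GB libraries were below every other library, and the GA libraries were all above those of CON. The log2FC was -1.34 in GB vs. GA (SE 0.088, 95% interval -1.54 to -1.14, adjusted p = 4.24e-06, limma with Benjamini-Hochberg adjustment). In GB vs. CON it was -1.16 (SE 0.088, 95% interval -1.36 to -0.96, adjusted p = 1.12e-05, limma). The mean was thus 2.57 times lower than in GA and 2.27 times lower than in CON. Among the genes called lower, *IFNAR1* ranked 51 of 123 by size in GB vs. GA and 73 of 134 in GB vs. CON. It lay above 63.1% of tested genes in GA and above 39.6% in GB.

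*IFNAR2* encodes the partner chain, which binds *JAK1*. It was 11.3, 12.0 and 12.1 FPKM in CON, 14.0, 11.5 and 14.5 in GA, and 14.2, 14.5 and 14.1 in GB. The GB values lay inside the range of GA and above all of CON. The log2FC in GB vs. GA was 0.10 with a 95% interval from -0.10 to 0.30 (adjusted p = 0.436, limma with Benjamini-Hochberg adjustment), an interval that does not reach the fall of *IFNAR1*. In GB vs. CON it was 0.26 (95% interval 0.06 to 0.46, adjusted p = 0.0478, limma), just past the threshold. That call was lost under 12 of 21 alternatives, with an adjusted p of up to 0.477, among them the omission of any CON library, of any GB library or of GA replicate 1.

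The balance of the 2 chains was read as a ratio within each library. The FPKM ratio of *IFNAR2* to *IFNAR1* was 0.348, 0.404 and 0.350 in CON, 0.393, 0.318 and 0.382 in GA, and 1.14, 0.96 and 0.93 in GB. *IFNAR1* was the more abundant chain in every library without IFNT, and in GB the levels of the chains overlapped. The mean log2 ratio was 1.44 higher in GB than in GA and 1.42 higher than in CON. Both differences gave p = 0.1 in a two-sided exact permutation test, the smallest value that 3 against 3 libraries allow, and 0.125 after adjustment over 10 tests of ratios, so this test cannot bring a ratio past 0.05. As alternatives, the test was repeated with other pseudocounts and with each library left out. A sign-flip test with libraries paired by replicate number was also run, and 3 pairs cannot bring it past 0.05 either.

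In the RefSeq gene order (assembly ARS-UCD2.0, used here only for names and order), *IFNAR1* lies between *IFNGR2* and *IL10RB*, and *IL10RB* is followed by *IFNAR2*. *IFNGR2*, a chain of the interferon gamma receptor, averaged 143, 136 and 122 FPKM in CON, GA and GB, a log2FC of -0.15 in GB vs. GA (adjusted p = 0.0968, limma). *IL10RB*, a chain shared by receptors of the interleukin 10 family and of type III interferons, averaged 23.4, 22.8 and 21.7 FPKM, a log2FC of -0.07 in GB vs. GA (adjusted p = 0.639, limma). Neither neighbour of *IFNAR1* passed the test in GB vs. GA, and *IFNGR2* fell in GB vs. CON by 0.22 on the log2 scale (adjusted p = 0.0198, limma). That last call was lost without CON replicate 1, GB replicate 1 or GB replicate 2, and with the replicate block and GC covariate (adjusted p up to 0.22).

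*JAK1* was the most abundant of the 9 genes in CON and GA. It was 83.9, 80.2 and 81.7 FPKM in CON, 81.3, 81.4 and 83.2 in GA, and 84.0, 82.5 and 78.7 in GB. The group means of 82.0 ± 1.86, 82.0 ± 1.06 and 81.7 ± 2.69 FPKM (SD, n = 3) differed by less than the spread within any group. The 95% interval of the log2FC ran from -0.10 to 0.09 in GB vs. GA (adjusted p = 0.949, limma). The interval in GB vs. CON had the same bounds to 2 decimals. The span of *JAK1* overlaps that of *RAVER2* in the RefSeq order, a gene at 5.19, 4.88 and 3.29 FPKM in CON, GA and GB. *RAVER2* had a log2FC of -0.50 in GB vs. GA (adjusted p = 0.0226, limma) and -0.58 in GB vs. CON (adjusted p = 0.0102, limma). Whether strand was used in counting is not given in the sources used here, and the part of the overlap in the *JAK1* values was not tested.

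*TYK2*, the kinase bound to the *IFNAR1* chain, was 15.7, 16.5 and 14.7 FPKM in CON, 15.8, 16.3 and 19.1 in GA, and 16.4, 17.1 and 15.3 in GB. The groups overlapped, and GA replicate 3 had the top value. The log2FC was -0.07 in GB vs. GA (95% interval -0.26 to 0.13, adjusted p = 0.604, limma) and 0.06 in GB vs. CON (95% interval -0.14 to 0.25, adjusted p = 0.654, limma). The ratio of *TYK2* to *JAK1* stayed between 0.180 and 0.229 over all 9 libraries, with an exact permutation p of 0.6 in GB vs. GA and 0.4 in GB vs. CON (two-sided). The other kinases of the family were read beside them. *JAK2* had a log2FC of 0.26 in GB vs. CON (adjusted p = 0.0436, limma), but this was not past the threshold under 14 of 21 alternatives and turned to -0.07 with the GC covariate (adjusted p = 0.747). Among those 14 were the omission of any GA or GB library, of CON replicate 2 (0.18) and of CON replicate 3. *JAK2* did not pass in GB vs. GA, and *JAK3* was at most 0.24 FPKM and was not tested.

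**Figure D2:**
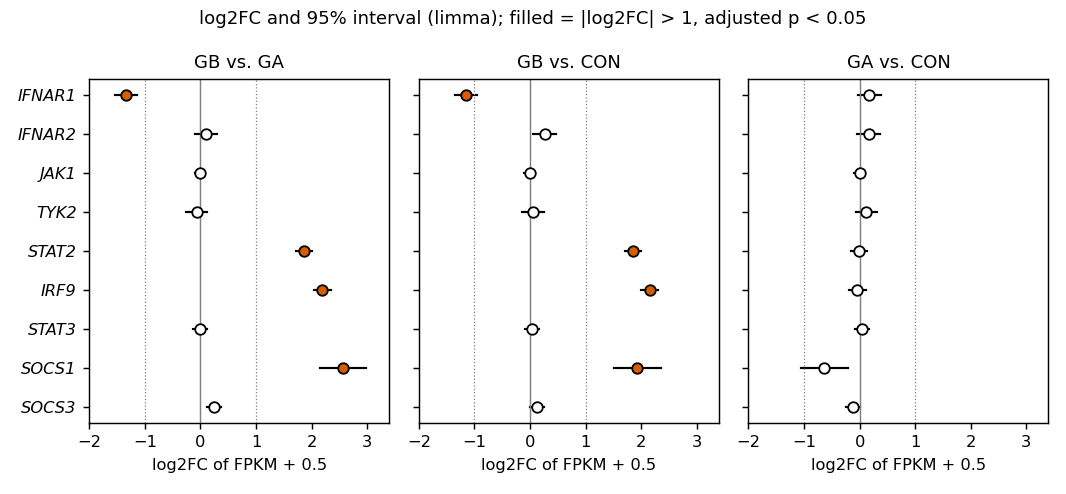
The log2FC of FPKM + 0.5 (horizontal axis, log2 scale) of the 9 genes in each comparison, with the 95% interval from limma and dotted lines at a log2FC of 1 in either direction. Filled points are called; these are *IFNAR1* (-1.34 in GB vs. GA), *STAT2*, *IRF9* and *SOCS1* in both comparisons with GB, and no point is filled in GA vs. CON.

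*STAT2*, the STAT protein specific to type I and type III interferon signalling, was 13.3, 12.0 and 13.2 FPKM in CON, 12.3, 12.3 and 13.5 in GA, and 45.9, 49.3 and 47.7 in GB. The CON and GA ranges overlapped, and the lowest GB library was over 3 times the highest of the others. The log2FC was 1.87 in GB vs. GA (SE 0.065, 95% interval 1.72 to 2.01, adjusted p = 3.24e-08, limma) and 1.85 in GB vs. CON (SE 0.065, adjusted p = 3.50e-08, limma). *STAT2* moved from above 36.6% of tested genes in GA to above 69.4% in GB.

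*IRF9* is the DNA-binding partner of the STATs in ISGF3. It was 22.8, 23.3 and 26.6 FPKM in CON, 22.7, 23.3 and 24.8 in GA, and 113, 108 and 106 in GB. GB stood apart from both other groups, which overlapped. The log2FC was 2.19 in GB vs. GA (SE 0.067, 95% interval 2.04 to 2.34, adjusted p = 1.24e-08, limma) and 2.15 in GB vs. CON (SE 0.067, adjusted p = 1.33e-08, limma). It became the most abundant of the 9 genes in GB, at 109 ± 3.55 FPKM (SD, n = 3) against 81.7 ± 2.69 for *JAK1*.

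The ISGF3 genes were compared with each other in the same way. The ratio of *IRF9* to *STAT2* was 1.71, 1.94 and 2.02 in CON, 1.84, 1.89 and 1.84 in GA, and 2.47, 2.19 and 2.23 in GB. Every GB ratio was above every other ratio, with a difference in mean log2 ratio of 0.32 against GA and 0.30 against CON (two-sided exact permutation p = 0.1 for each, the smallest possible here). Among genes called higher in GB vs. GA, *IRF9* ranked 147 and *STAT2* 179 of 335 by log2FC. Both genes overlap a neighbour in the RefSeq order. *RNF31*, a ubiquitin ligase subunit gene overlapping *IRF9*, averaged 14.9, 15.6 and 24.1 FPKM in CON, GA and GB (log2FC 0.61 in GB vs. GA, adjusted p = 0.000155, limma). *IL23A*, a cytokine subunit gene overlapping *STAT2*, averaged 2.18, 4.38 and 8.62 FPKM (log2FC 0.98 in GB vs. GA, adjusted p = 0.0306, limma). The authors counted reads with RSEM, and whether strand was used in the overlaps is not given. The part of the overlaps in either value was not tested.

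*STAT3*, which serves interleukin 6 type cytokines and can also be activated by type I interferon, was 67.8, 68.0 and 71.1 FPKM in CON, 68.4, 69.3 and 75.6 in GA, and 70.6, 73.8 and 66.9 in GB. The ranges overlapped in all groups. The 95% interval of the log2FC was -0.14 to 0.11 in GB vs. GA (adjusted p = 0.887, limma) and -0.10 to 0.16 in GB vs. CON (adjusted p = 0.716, limma). *STAT3* was over 5 times as abundant as *STAT2* in CON and GA, and the ratio of *STAT2* to *STAT3* went from 0.178 ± 0.000921 in GA to 0.676 ± 0.0324 in GB (SD, n = 3; two-sided exact permutation p = 0.1, the smallest possible). The neighbouring gene *STAT5A* rose, from 25.5 FPKM in GA to 30.2 in GB (log2FC 0.24, adjusted p = 0.0107, limma), while *STAT4*, *STAT5B* and *STAT6* did not pass in either comparison with GB.

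*SOCS1* encodes an inhibitor that binds JAK kinases directly. It was the least abundant of the 9 genes in CON and GA, with CON libraries at 6.70, 6.94 and 5.72 FPKM and GA libraries at 3.98, 5.53 and 2.81. In GB it was 27.6, 24.7 and 25.6 FPKM, above all other libraries without overlap. The log2FC was 2.56 in GB vs. GA (SE 0.186, 95% interval 2.14 to 2.98, adjusted p = 8.76e-06, limma), ranking 117 of the 335 genes called higher. In GB vs. CON it was 1.93 (SE 0.186, 95% interval 1.51 to 2.35, adjusted p = 5.76e-05, limma), and this call was lost in 1 alternative, the fit with both the replicate number and the GC content of the reads (adjusted p = 0.0666). GA was the group with the widest relative spread, with an SD of 33.2% of its mean against 10.0% in CON and 5.85% in GB.

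*SOCS3* encodes an inhibitor that acts mainly on receptors signalling through *STAT3*. It was 41.0, 42.7 and 43.8 FPKM in CON, 38.4, 39.2 and 40.2 in GA, and 49.6, 46.2 and 44.1 in GB. The 3 groups did not overlap, and GB was the highest and GA the lowest. The log2FC was 0.24 in GB vs. GA (SE 0.055, 95% interval 0.12 to 0.37, adjusted p = 0.00999, limma), past the adjusted threshold but far under the fold threshold, and it stayed past the adjusted threshold in all 21 alternatives. In GB vs. CON it was 0.13 and did not pass (adjusted p = 0.0985, limma). The ratio of *SOCS1* to *SOCS3* was 0.152 ± 0.0187 in CON, 0.105 ± 0.0357 in GA and 0.557 ± 0.0236 in GB (SD, n = 3). It was higher in all GB libraries than in any other (two-sided exact permutation p = 0.1 in both comparisons, the smallest possible).

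**Figure D3:**
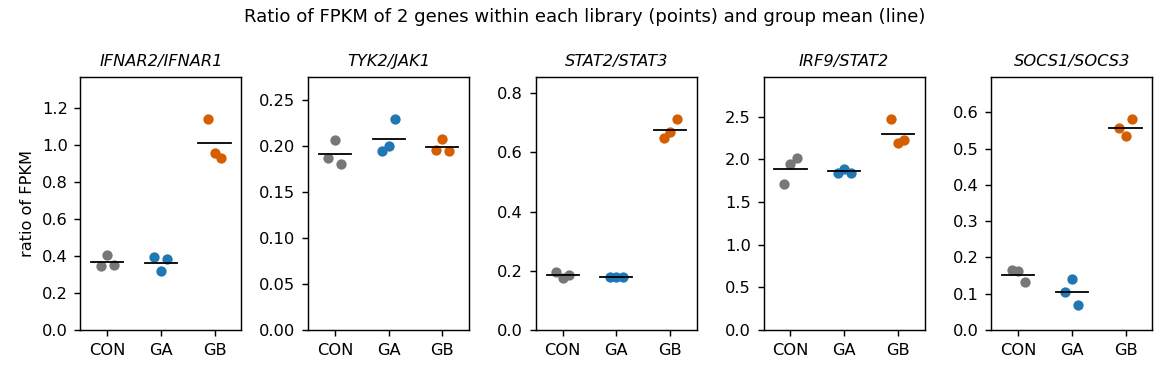
Ratio of the FPKM of 2 genes within each library (vertical axes, from 0), with a point for each of the 9 libraries and a line at the group mean. The ratio of *IFNAR2* to *IFNAR1* is 0.367 in CON, 0.364 in GA and 1.01 in GB on average, the ratios with *STAT2*, *IRF9* and *SOCS1* are also highest in GB, and *TYK2* to *JAK1* overlaps in all groups.

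The order of the levels, on the FPKM scale, was the same in CON and GA except for *STAT2* and *IFNAR2*, whose ranges overlapped. From high to low it was *JAK1*, *STAT3*, *SOCS3*, *IFNAR1*, *IRF9*, *TYK2*, then *STAT2* and *IFNAR2*, then *SOCS1*, and all other neighbours in that order had ranges apart. In GB the order was *IRF9*, *JAK1*, *STAT3*, *STAT2*, *SOCS3*, *SOCS1*, *TYK2*, *IFNAR2* and *IFNAR1*, with overlapping ranges for *STAT2* and *SOCS3* and for *IFNAR2* and *IFNAR1*. *IFNAR1* thus went from the fourth place to the last, and *SOCS1* from the last to the sixth.

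The hormones alone, in GA vs. CON, passed no threshold for any of the 9 genes. By limma 0 were called, 0 passed the adjusted p (background 0.453% of tested genes) and 1, *SOCS1*, had an unadjusted p under 0.05, as did 2430 of the 12578 tested genes. No other tool was run on this comparison. *SOCS1* averaged 6.45 ± 0.646 FPKM in CON and 4.11 ± 1.36 in GA (SD, n = 3), a log2FC of -0.63 (95% interval -1.05 to -0.21, adjusted p = 0.135, limma). The ranges did not overlap for 3 of the 9 genes, *IFNAR1* (higher in GA), *SOCS1* and *SOCS3* (lower in GA), against 24.7% of all tested genes. The size of the *SOCS1* difference was -0.21 with the GC content of the reads as a covariate, and that of *IFNAR1* turned from 0.18 to -0.12. The remaining 6 genes had overlapping groups. Their log2FC ran from -0.04 for *IRF9* to 0.16 for *IFNAR2*.

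The other genes of the pathway were taken from a list of 32, comprising receptor chains of related cytokines, further kinases and STATs, further SOCS genes, and other regulators. All but *IFNLR1*, a chain of the type III interferon receptor, were in the table, and 30 were tested. In GB vs. GA 2 of the 30 (6.67%) were called, *USP18* and *PIAS2*, against 3.64% of all tested genes, and 12 (40%) passed the adjusted p. Of these 5 (16.7%) were higher and 7 (23.3%) lower, against 9.87% and 19.2% of all tested genes. The same 2 were called in GB vs. CON, against 4.01% of all tested genes, and 13 passed the adjusted p there, 7 higher (23.3%) and 6 lower (20%), against 16.2% and 17.3% of all tested genes. None passed the adjusted p in GA vs. CON by limma, where 0.453% of all tested genes did. There 4 of the 30 had an unadjusted p under 0.05, as did 2430 of the 12578 tested genes. The median log2FC of the 30 was -0.02 in GB vs. GA, against -0.08 for all tested genes.

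*USP18*, the protease that removes *ISG15* from proteins and binds *IFNAR2*, was 3.71, 2.51 and 3.30 FPKM in CON and 4.07, 4.33 and 4.53 in GA. In GB it was 547, 569 and 584 FPKM. The log2FC of 6.88 in GB vs. GA (SE 0.110, adjusted p = 1.79e-10, limma) ranked 20 of 335 genes called higher, well above the values of *STAT2*, *IRF9* and *SOCS1*.

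*PIAS2*, of the PIAS family of SUMO ligases first described as STAT inhibitors, was 34.7, 33.2 and 34.5 FPKM in CON, 36.5, 36.1 and 38.0 in GA, and 13.1, 13.7 and 14.9 in GB. It fell by 1.38 on the log2 scale in GB vs. GA (SE 0.060, adjusted p = 1.67e-07, limma), beside -1.34 for *IFNAR1*, and ranked 46 of 123 genes called lower. The other PIAS genes did not follow it as a group. *PIAS1* rose by 0.53 on the log2 scale (adjusted p = 0.000786, limma), from 20.1 to 29.4 FPKM. *PIAS4* fell by 0.27 (adjusted p = 0.00502, limma), and *PIAS3* did not pass. In GB vs. CON the log2FC of *PIAS4* was -0.13 and did not pass (adjusted p = 0.0901, limma).

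Of the 8 other receptor chains tested, 1 passed the adjusted p as higher and 2 as lower in GB vs. GA. Over all tested genes 9.87% passed as higher and 19.2% as lower, so nothing is read from the count. *OSMR*, the oncostatin M receptor chain, went from 31.6, 32.6 and 34.9 FPKM in GA to 56.6, 58.1 and 60.4 in GB, where CON had 30.3, 26.5 and 31.8. Its log2FC was 0.81 in GB vs. GA (adjusted p = 4.17e-05, limma) and 0.97 in GB vs. CON (adjusted p = 1.06e-05, limma), just under the fold threshold, which it passed (1.03) without CON replicate 3. It was 0.68 in GB vs. CON with the GC covariate and 0.72 with the replicate block and GC covariate, past the adjusted p in both. *IL6ST*, the signal-transducing chain that *OSMR* pairs with, fell by 0.29 in GB vs. GA (adjusted p = 0.0283, limma). It was 49.9, 49.3 and 62.1 FPKM in GA and 42.6, 44.2 and 44.5 in GB, and the log2FC was -0.18 without GA replicate 3. The call was lost without any 1 of the GB libraries, with median-of-ratios factors and with a fit of the 2 groups (adjusted p up to 0.0849). CON had 45.9, 46.1 and 46.9 FPKM of *IL6ST*, and in GB vs. CON its log2FC of -0.08 did not pass (adjusted p = 0.487, limma). *IL4R*, the interleukin 4 receptor chain, fell by 0.29 (adjusted p = 0.00227, limma) and passed in all 21 alternatives. *IFNGR1*, the ligand-binding chain for interferon gamma, did not pass.

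None of the 6 other SOCS genes tested passed the adjusted p as higher in GB vs. GA, and 2 passed as lower. Over all tested genes 9.87% passed as higher and 19.2% as lower, and nothing is read from these counts. *CISH*, whose product inhibits STAT5 signalling, fell by 0.66 on the log2 scale in GB vs. GA (adjusted p = 0.0119, limma), from 5.45, 7.80 and 7.43 FPKM in GA to 3.44, 4.08 and 5.01 in GB, with no overlap. *SOCS5* had a log2FC of -0.25 (adjusted p = 0.0477, limma) that was not past the threshold under 17 of 21 alternatives, the omission of any library but GB replicate 1 among them. Its log2FC was -0.16 without GB replicate 3, and its adjusted p was up to 0.146. *SOCS2*, *SOCS4*, *SOCS6* and *SOCS7* did not pass. Of the phosphatase genes, *PTPN1*, whose product acts on *JAK2* and *TYK2*, rose by 0.21 (adjusted p = 0.0119, limma) and *PTPN11* fell by 0.26 (adjusted p = 0.000552, limma). The coactivators *CREBBP* and *EP300*, which STAT complexes recruit, did not pass in either comparison with GB.

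**Figure D4:**
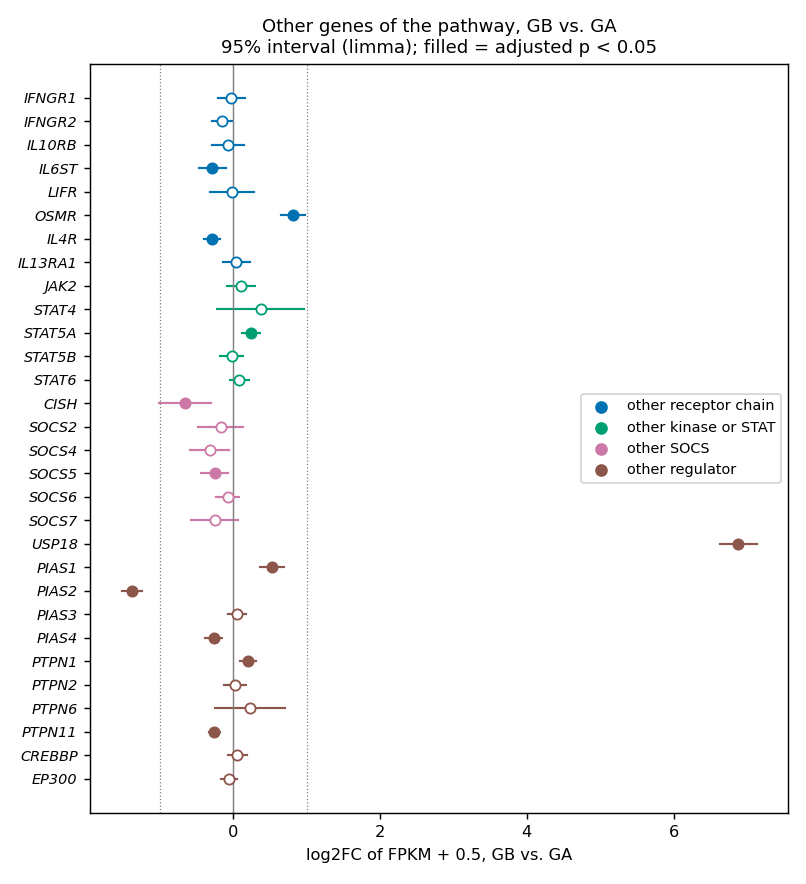
The log2FC of FPKM + 0.5 (horizontal axis, log2 scale) in GB vs. GA of the 30 tested genes of the pathway list, coloured by role, with 95% intervals from limma and dotted lines at a log2FC of 1 in either direction. Filled points passed the adjusted p; *USP18* stands alone at 6.88, *PIAS2* at -1.38, and the rest lie between -0.66 (*CISH*) and 0.81 (*OSMR*).

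For the 4 called genes, the genes with the most similar profile were found by Pearson correlation of log2(FPKM + 0.5) over the 9 libraries. These values describe a pattern that a step between GB and the other groups is enough to produce, and they do not compare the size of the step. For *STAT2* they were *LOC100139670*, described in the table as an IFIT1 protein, *PLSCR2* and *TRIM21* (r = 0.999 for each). For *IRF9* they were *TAPBP*, *TAP1* and *CNP* (r = 0.999 for each), the first 2 of which serve peptide loading of MHC class I. For *SOCS1* they were *INHBA* (0.994), *IFITM2* (0.994) and *CXCR4* (0.990). Their log2FC in GB vs. GA was 0.39, 6.26 and 2.06, beside 2.56 for *SOCS1*. For *IFNAR1* they were *PABPC1* (0.997), *COX1* (0.996) and *ARF2* (0.996), with log2FC in GB vs. GA of -0.29, -1.25 and -0.93.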

How the data were processed

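RNA-seq libraries (directional, poly-A) from 3 CON, 3 GA and 3 GB cultures were processed by the authors with fastp, Bowtie2 (rRNA removal), HISAT2 (ARS-UCD1.2) and RSEM. The deposited values are FPKM per gene and library, to 2 decimals, and the table used here holds no read counts, so depth per gene is unknown. FPKM summed to 1395622 to 1442723 per library, and libraries of a group correlated at r = 0.989 to 0.991.

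log2(FPKM + 0.5) was fitted with limma 3.58.1 (R 4.3.3), with a mean for each group over all 9 libraries and a variance trend, leaving out genes whose mean FPKM was under 0.5. Benjamini-Hochberg adjustment covered all 12578 tested genes. Fold changes of low genes are understated by the pseudocount. Ratios were compared by two-sided exact permutation tests (scipy 1.17.1). The limma fit was tried on simulated data with independent noise and with genes shifted in GB by more than the fold threshold. That simulation did not cover the ratio tests, smaller shifts or differences shared by the genes of a library.

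The members and lists were chosen with earlier results of these data known. Named genes are the 9, the pathway list, 5 interferon targets, cell type markers, RefSeq neighbours, and the 3 most correlated genes of each called member. The neighbours printed were chosen after their values were seen. Some pathway components are not reported here. Alternatives were pseudocounts of 1 and 0.1, no filter or a filter at 1, TPM rescaling, median-of-ratios factors, quantile normalization, no variance trend, a fit of the 2 compared groups, the replicate number as a block, read GC content per library (from the study's sequencing statistics) as a covariate, both together, and each library left out.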

Additional observations from a re-analysis of the deposited data

How the results depend on the processing

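The counts of called genes and of called pathway genes, and the direction of the 4 called genes in both comparisons with GB, held under the 21 alternatives, except that the pathway count in GB vs. CON was 2 to 3 with a library left out (*OSMR*) and that *SOCS1* in GB vs. CON was not past the threshold with the replicate block and GC covariate (1.98, adjusted p = 0.0666, limma). That fit left 3 genes past the adjusted p in GB vs. CON, and 514 of all genes against 4212. The GC covariate alone left 1472. The cause was not tested. The same-numbered libraries did not deviate together (r = -0.03 to 0.08), so the numbers were not taken as pairs. With the replicate block alone, 5 genes passed in GB vs. GA and 4 in GB vs. CON (*IFNAR2* was lost), and the called counts stayed at 4.

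Differences near 0 changed sign. In GB vs. GA, *JAK1* was 0.0231 with TPM rescaling and 0.0696 with median-of-ratios factors, *STAT3* was 0.0149 and 0.0613, and *TYK2* was 0.0072 with median-of-ratios factors. In GB vs. CON, *JAK1* was 0.0091 with median-of-ratios factors, and *STAT3* was -0.0284 with quantile normalization, -0.0316 with the GC covariate and -0.0368 with block and GC. In GA vs. CON, *IFNAR1* was -0.122 with the GC covariate and -0.142 with block and GC, *IRF9* was 0.0031 with block and GC, and *STAT3* was -0.0177 (median-of-ratios), -0.0125 (quantile), -0.0153 (GC) and -0.0201 (block and GC).

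With each library left out, the log2FC in GB vs. GA ranged from -0.0012 to 0.164 (*IFNAR2*), -0.0242 to 0.0218 (*JAK1*), -0.116 to 0.015 (*TYK2*) and -0.0467 to 0.0314 (*STAT3*). In GB vs. CON it ranged from -0.0243 to 0.0217 (*JAK1*) and -0.004 to 0.0662 (*STAT3*). In GA vs. CON it ranged from -0.0152 to 0.017 (*JAK1*), -0.0605 to 0.0108 (*STAT2*), -0.0793 to 0.0294 (*IRF9*) and -0.0015 to 0.0694 (*STAT3*). The log2 ratio of *TYK2* to *JAK1* in GB vs. GA ranged from -0.106 to 0.0089.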
